A study of Rattus norvegicus with 325 samples.

Results

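The genes of the cytosolic ribosomal proteins were described across 4 rat skeletal muscles and 7 ages. They were taken by symbol: Rpl or Rps followed by a number, with an optional a, x or l and a further digit, and Rpsa, Rplp0, Rplp1 and Rplp2. The rule found 81 of 17315 gene symbols, 49 of the large subunit and 32 of the small subunit. Of these 81, 16 stood on more than 1 line of the files, and the lines of a symbol were summed, giving 107 lines in all. The low-count filter kept 80 members in every muscle, and the member it left out was Rpl39l.

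The animals were outbred male Sprague Dawley rats from Envigo, with no treatment or allele named in the labels, and those of 6 months, the youngest group, were the controls for those of 9, 12, 18, 21, 24 or 27 months. Diaphragm, gastrocnemius, soleus and tibialis anterior (TA) gave 83, 73, 84 and 85 libraries of total RNA from which ribosomal RNA had been removed. Each of the 28 groups of 1 muscle and 1 age held 9 to 13 libraries, and the labels did not tell which libraries came from the same animal. Muscles of 1 age were collected on 1 day, so that age and day of collection cannot be told apart. The p-values therefore measure the spread between animals of 1 collection.

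A cytosolic ribosome is built of a small subunit that reads the messenger RNA and a large subunit that joins the amino acids, and nearly every ribosomal protein is present once in it. The messenger RNAs of these proteins begin with a cytosine followed by a run of pyrimidines, the terminal oligopyrimidine (TOP) motif, through which their translation follows growth signals of the mTOR pathway. Rpl3 reaches close to the site of peptide bond formation. Its paralog Rpl3l is made almost only in heart and skeletal muscle, where it can take the place of Rpl3.

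The start of the messenger is the feature that most ribosomal protein genes share and that the choice by symbol did not use. RefSeq promoters of the rat assembly GRCr8 were matched by symbol for 65 members, with 66 promoters, while 16 members were not matched. A C at the annotated start followed by at least 4 further C or T was found in 24 of the 66 promoters (36.4%), and in 2.63% of 33469 promoters of all genes. The 30 bases around the annotated start are shown for the pair, for Rplp0, Rps27l and Rps6 of the results that follow, and for Rpl31 and Rps18 as examples of a run from C, 15 bases on each side, 5′ to 3′ on the gene's strand. Capitals mark the unbroken run of C and T that begins at the start, where it is at least 5 bases long.

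Rplp0: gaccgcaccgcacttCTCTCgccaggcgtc
Rpl31: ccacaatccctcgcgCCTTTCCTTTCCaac
Rps18: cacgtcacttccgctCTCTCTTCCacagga
Rpl3: ccagcgcctgctcgaTCTCTatcggcggcg
Rpl3l: gacctctggtgcctggtggggaggtccctt
Rps27l: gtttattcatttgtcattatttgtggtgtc
Rps6: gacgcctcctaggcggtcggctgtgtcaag

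These windows lie at chr12:46718376-46718405 on the minus strand for Rplp0, chr9:49143096-49143125 on the plus strand for Rpl31 and chr20:4933730-4933759 on the plus strand for Rps18. They lie at chr7:113507976-113508005 on the minus strand for Rpl3, chr10:14258431-14258460 on the plus strand for Rpl3l, chr8:76443643-76443672 on the plus strand for Rps27l and chr5:106420526-106420555 on the minus strand for Rps6. Rplp0, Rpl31 and Rps18 carry such a run from C. The run of Rpl3 begins with T, so that it does not count under the rule above. No run of that length begins at the annotated start of Rpl3l, Rps27l or Rps6. The annotated start can lie several bases from the start used in muscle. A run that begins anywhere from 5 bases before to 15 bases after the annotated start was present in 63.6% of the members' promoters and in 22.8% of all promoters. Under this wider rule Rpl3l carried a run, while Rpl3, Rps27l and Rps6 did not.

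The pair also differed in the letters upstream of the start. In the 250 bases before the start, on either strand, the E-box CANNTG occurred in 43.9% of the members' promoters and in 65.5% of all promoters. TATAAA occurred in 10.6% and 12.9%, and CCGGAAG, a core bound by factors of the ETS family, in 24.2% and 7.27%. The last 150 bases before the start of the pair are shown because Rpl3 and Rpl3l moved apart with age. Capitals mark TATAAA, read on the other strand, in Rpl3, and CANNTG in Rpl3l.

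Rpl3: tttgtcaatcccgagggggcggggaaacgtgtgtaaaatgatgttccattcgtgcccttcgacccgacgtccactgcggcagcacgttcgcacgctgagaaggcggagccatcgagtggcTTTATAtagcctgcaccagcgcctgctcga
Rpl3l: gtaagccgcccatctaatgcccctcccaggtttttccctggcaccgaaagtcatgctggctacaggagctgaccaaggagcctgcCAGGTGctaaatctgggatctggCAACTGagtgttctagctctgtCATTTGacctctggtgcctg

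The stretch of Rpl3 is chr7:113507991-113508140 on the minus strand, and that of Rpl3l is chr10:14258296-14258445 on the plus strand. Rpl3 holds TATAAA shortly before its start and Rpl3l holds CANNTG at 3 positions. Such matches describe the letters only, and binding was not measured.

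Depth ran from 17555294 to 85316329 counts per library. In 4 libraries the correlation with the rest of their group was lower than for the others (a diaphragm library of 18 months, a gastrocnemius library of 6 months, and TA libraries of 21 and 24 months), and the main counts are also given without them. The gastrocnemius libraries had received a number series of their own and held the most residual ribosomal RNA, 0.424% to 9.84% of counts, against at most 0.725% in any library of the other muscles. At 6 months, the summed level of 5 slow-fibre genes was 55749 counts-per-million (CPM, median) in the soleus and 1889 in the TA, and that of 6 fast-fibre genes was 1347 and 130006. No gene of these lists was at 0 in any muscle, so that the tissue labels and the fibre markers pointed the same way.

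Together the 81 members took a small share of all counts, and this share was higher at 27 than at 6 months in every muscle. The median share of the diaphragm went from 1.13% to 1.28% and that of the gastrocnemius from 1.29% to 1.74%. For the soleus it went from 1.39% to 1.69%, and for the TA from 0.952% to 1.37%. The 6- and 27-month libraries did not overlap in the gastrocnemius (highest 1.36%, lowest 1.44%), the soleus (1.487%, 1.493%) and the TA (0.983%, 1.11%), and they overlapped in the diaphragm. This share rests on library totals. The 10 genes with the most counts in a library took a median of 17.6%, 27.8%, 19.9% and 28.1% at 6 months in diaphragm, gastrocnemius, soleus and TA. At 27 months they took 18.1%, 21.6%, 17.1% and 21.6%. With library totals the median log2 change of all genes tested was 0.04, 0.32, 0.16 and 0.34, so that the rise of the share was not particular to the members. In bulk tissue, fewer cells of a type and less RNA per cell cannot be told apart, here and in every result that follows.

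Gene by gene, most members were higher at 27 than at 6 months, by small amounts. A member counted as higher or lower when its adjusted p from limma-voom, fitted on all genes of a muscle with Benjamini-Hochberg adjustment, was under 0.05. In the diaphragm 50 of 80 members were higher and 3 lower, where 20.3% of all genes tested were higher and 24.7% lower. In the gastrocnemius 48 were higher and 2 lower, beside 33.2% and 28.9% of all genes. In the soleus 56 were higher and 2 lower, beside 27.4% and 26.4%. In the TA 58 were higher and 4 lower, beside 37.7% and 36.5%.

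The median log2 change of the members was 0.14, 0.17, 0.16 and 0.21 in diaphragm, gastrocnemius, soleus and TA, and that of all genes tested was 0.00, 0.04, 0.02 and 0.02. Few members changed by more than 1.5-fold, namely 1, 4, 2 and 2 in the same order of muscles. The same criterion was met by 7.52%, 22.8%, 15% and 27.6% of all genes, in either direction. The libraries of both ages did not overlap for 7, 6, 5 and 19 members, beside 2.92%, 14.2%, 5.62% and 19.9% of all genes. The share of members without overlap was thus above that of all genes in the diaphragm, below it in the gastrocnemius and near it in soleus and TA.

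**Figure D1:**
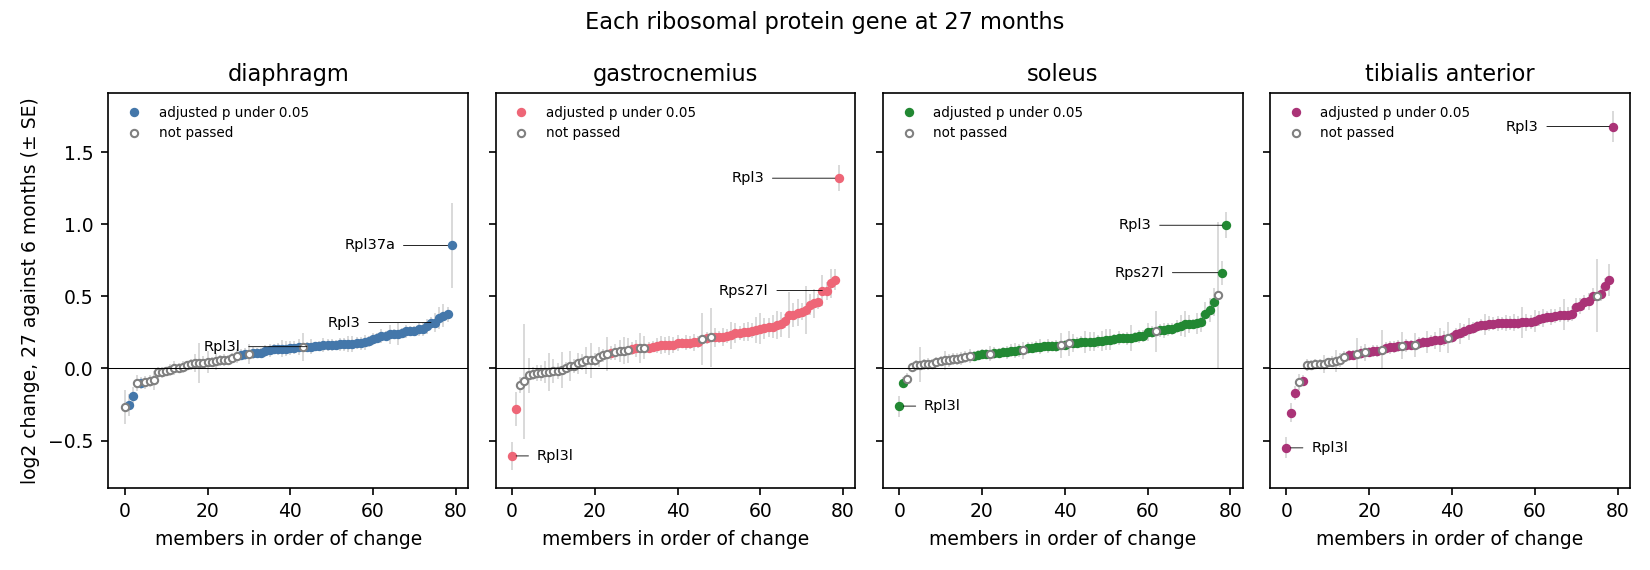
Log2 change from 6 to 27 months (y axis, with its standard error) of each of the 80 ribosomal protein genes tested, in order of change (x axis), 1 panel per muscle. Filled points passed the test and open points did not. Rpl3 stands apart from the other members at the top of the gastrocnemius, soleus and TA panels (1.32, 0.99 and 1.68), and Rpl3l stands at the bottom of the same panels (-0.61, -0.26 and -0.55, the soleus value not passing when libraries were scaled by their totals).

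Both subunits shared in the rise. In the diaphragm 30 of 48 large-subunit and 20 of 32 small-subunit members were higher, with median changes of 0.14 and 0.15. In the gastrocnemius 26 and 22 were higher (0.15 and 0.19), and in the soleus 32 and 24 (0.16 and 0.18). The widest gap between the medians was in the TA, where 29 of 48 and 29 of 32 were higher and the medians were 0.16 and 0.31. The difference between the subunits was not tested.

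Across the muscles, 21 members were higher at 27 months in all 4, 27 in 3, 17 in 2, 13 in 1 and 2 in none. Of the 11517 genes tested in every muscle, 6.1% were higher in all 4, 13.8% in 3, 15.9% in 2, 21.7% in 1 and 42.5% in none. With the share of ribosomal RNA counts as a covariate, 22 members were higher in all 4 muscles, 15 in 3, 16 in 2, 19 in 1 and 8 in none, beside 5.02%, 12%, 14.9%, 22% and 46.1% of all genes. The 21 included Rpl3, Rpl10a, Rpl12, Rpl13, Rpl41, Rps12, Rps18, Rps19 and Rps21. The 1 member lower in 3 muscles was Rpl3l.

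Scaling and residual ribosomal RNA bear on these counts. With library totals in place of TMM factors, the median of all genes at 27 months moved by 0.04, 0.28, 0.15 and 0.32 in diaphragm, gastrocnemius, soleus and TA. Then 55, 76, 75 and 78 members were higher, beside 3189 of 12035, 7235 of 11865, 5378 of 12175 and 7622 of 11754 genes tested. Of all genes called, 45.1%, 53.5%, 50.9% and 50.8% were higher with TMM, and 56.8%, 83.6%, 74.6% and 81.5% with totals. The median of the members above the median of all genes was the same or nearly so, 0.14, 0.13, 0.15 and 0.20 with totals and 0.14, 0.13, 0.14 and 0.20 with TMM. With the share of ribosomal RNA counts as a covariate, 32, 53, 55 and 44 members were higher. Of the same genes tested, 1785, 4187, 3249 and 3579 were higher with the covariate. The median share of ribosomal RNA went from 0.241% to 0.314% in the diaphragm and from 0.323% to 0.505% in the TA. In the gastrocnemius it went from 1.92% to 2.48% and in the soleus from 0.265% to 0.305%. Its part in the rise of the members was not tested further. Without the 4 libraries that stood apart, 52, 45, 56 and 59 members were higher, beside 2932 of 12032, 3526 of 11863, 3333 of 12175 and 4507 of 11760 genes tested.

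Cells other than muscle fibres also left more or less RNA at 27 months. The summed level of 8 macrophage genes ranged from 132 to 243 CPM at 6 months and from 208 to 319 CPM at 27 months in the diaphragm. The gastrocnemius had 88.0 to 139 and then 177 to 362 CPM, the soleus 171 to 284 and then 294 to 454 CPM, and the TA 38.5 to 61.7 and then 90.4 to 226 CPM. Of the 8 genes, 5 rose in the diaphragm and 8 in each other muscle, none fell, and none was at 0. Of 8 endothelial genes, 5, 7, 4 and 5 fell in diaphragm, gastrocnemius, soleus and TA, and 1 rose in the TA. Of 8 fibroblast genes, 1, 4, 5 and 5 rose and 5, 1, 1 and 1 fell. Of 5 adipocyte genes, 0, 4, 5 and 4 rose. Of all genes, 20.3%, 33.2%, 27.4% and 37.7% were higher and 24.7%, 28.9%, 26.4% and 36.5% lower. With library totals, 4, 3, 3 and 2 endothelial genes fell and 2 rose in the TA. Fibroblast genes that rose were then 1, 5, 7 and 6, and those that fell 5, 1, 1 and 0. Totals gave 6, 8, 8 and 8 macrophage genes and 0, 5, 5 and 5 adipocyte genes that rose. The part of these cells in the change of the members was not tested.

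Between 6 and 27 months the members did not move in equal steps. The same 6-month libraries served as controls for every age, so that the ages are not independent of each other. At 9 months no member passed in any muscle, where 0.424%, 0.312%, 0.559% and 0.00851% of all genes did in diaphragm, gastrocnemius, soleus and TA. An unadjusted p under 0.05 was reached there by 4, 2, 16 and 5 of the 80 members in limma-voom, beside 9.49%, 9.11%, 13.6% and 8.65% of all genes. At 12 months 2 diaphragm members and 3 soleus members were lower, and none passed in gastrocnemius or TA, beside 3.51%, 2.55%, 2.24% and 0.706% of all genes in either direction. The unadjusted count at 12 months was 2 in the gastrocnemius and 4 in the TA, beside 15.4% and 9.68% of all genes.

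At 18 months the counts differed widely between muscles. In the soleus 53 members were higher (13.1% of all genes), in the diaphragm 25 (9.66%), in the TA 18 (17.6%) and in the gastrocnemius 1 (7.18%), which was Rpl3. The soleus had the highest median change at 18 months, 0.16, followed by diaphragm (0.09), TA (0.06) and gastrocnemius (-0.0017). Ages share a collection day within themselves, and the part of the day was not tested.

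At 21 months the number of members higher was 8 for the diaphragm (3.97% of all genes), 4 for gastrocnemius (9.98%), 2 for soleus (6.23%) and 36 for TA (15.2%). At 24 months it was 4 for the diaphragm (5.43%), 25 for gastrocnemius (29%), 17 for soleus (14.6%) and 36 for TA (29.6%). The soleus thus had fewer members higher at 21 and 24 months than at 18 and 27 months, and the median there was 0.05 at 21 months and 0.04 at 24 months. In the TA the median was 0.06, 0.12, 0.13 and 0.21 at 18, 21, 24 and 27 months. Over 6, 18, 21, 24 and 27 months the median share of ribosomal RNA was 0.265%, 0.334%, 0.268%, 0.276% and 0.305% in the soleus. In the diaphragm it was 0.241%, 0.280%, 0.249%, 0.262% and 0.314%. The TA had 0.323%, 0.441%, 0.425%, 0.418% and 0.505%, and the gastrocnemius 1.92%, 2.60%, 1.65%, 0.999% and 2.48%. The part of ribosomal RNA in these steps was not tested.

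**Figure D2:**
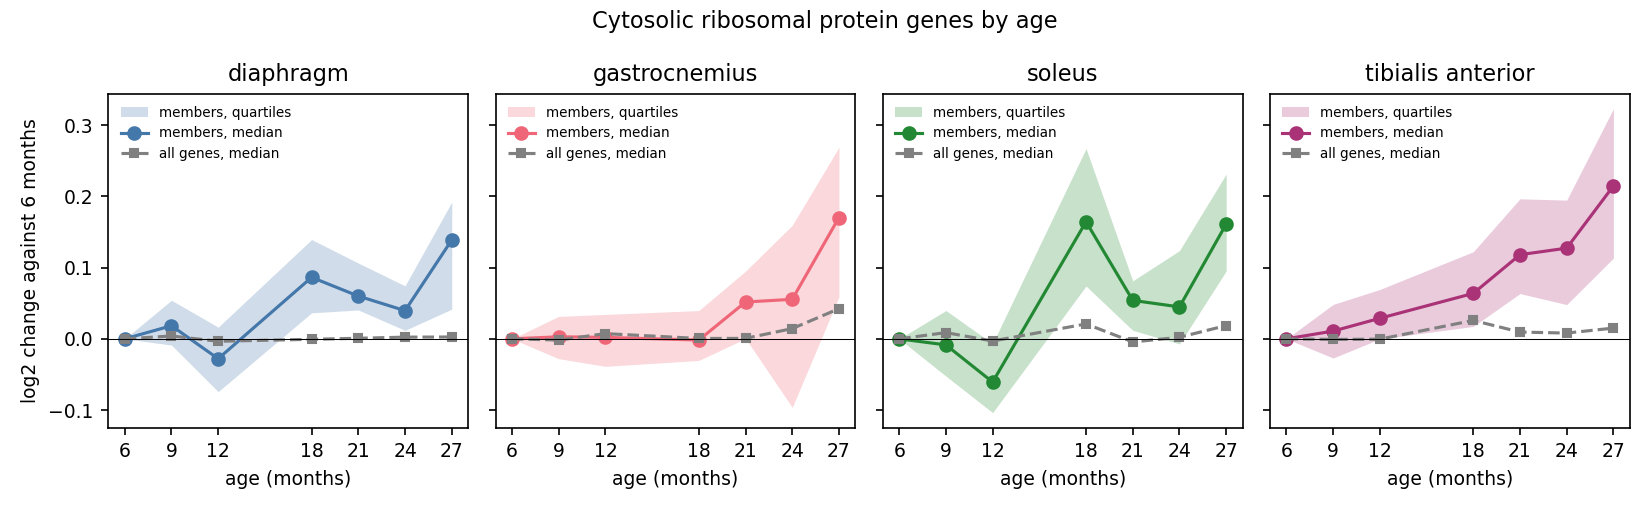
Log2 change against 6 months (y axis) at each age (x axis, months), 1 panel per muscle. Coloured points are the median of the 80 ribosomal protein genes and the band their quartiles, grey squares are the median of all genes tested. The soleus shows a first high point at 18 months (0.16) and a second at 27 months (0.16), while the TA median is highest at 27 months (0.21).

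Rpl3 was the member with the largest rise in the 3 limb muscles. In the gastrocnemius its level (log2 CPM, scaled within the muscle) had a lowest, median and highest value of 5.28, 5.45 and 5.65 at 6 months and of 6.37, 6.74 and 7.23 at 27 months. The groups did not overlap, and the log2 change was 1.32 ± 0.09 (SE), 2.49-fold, with an adjusted p of 5.01e-20 in limma-voom. In the TA the values were 5.09, 5.35 and 5.43 at 6 months and 6.45, 7.01 and 7.38 at 27 months. Here too every library of 27 months lay above every library of 6 months, and the log2 change was 1.68 ± 0.10 (SE), 3.2-fold (adjusted p = 2.54e-24). In the soleus the values were 6.20, 6.44 and 6.60 at 6 months and 6.78, 7.50 and 7.95 at 27 months, again without overlap, and the log2 change was 0.99 ± 0.09 (SE), 1.99-fold (adjusted p = 8.83e-16). The diaphragm, the respiratory muscle that works without pause, had 5.96, 6.26 and 6.73 at 6 months and 6.19, 6.64 and 7.02 at 27 months. Its groups overlapped, and the log2 change was 0.32 ± 0.07 (SE; adjusted p = 7.15e-05).

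The rise of Rpl3 was present in part before 27 months. In the gastrocnemius the log2 change was 0.42 at 18 months (adjusted p = 0.000943), 0.75 at 21 months and 1.30 at 24 months. In the TA it was 0.41 (adjusted p = 0.000984), 0.71 and 1.37 at the same ages, with no overlap with 6 months at any of them. The soleus came later, with 0.04 at 18 months, which did not pass, 0.33 at 21 months (adjusted p = 0.00751) and 0.65 at 24 months. In the diaphragm the first age to pass was 24 months (0.21, adjusted p = 0.0282).

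Rpl3l, the muscle paralog, moved the other way in the limb muscles. In the gastrocnemius its lowest, median and highest log2 CPM were 8.23, 8.44 and 8.93 at 6 months and 7.54, 7.75 and 8.48 at 27 months. The log2 change was -0.61 ± 0.10 (SE; adjusted p = 1.56e-07), and the groups overlapped. In the TA they were 7.67, 7.88 and 8.03 at 6 months and 6.90, 7.35 and 7.87 at 27 months, with overlap and a log2 change of -0.55 ± 0.07 (SE; adjusted p = 2.59e-10). In the soleus they were 7.20, 7.35 and 7.42 at 6 months and 6.41, 7.19 and 7.63 at 27 months, so that the older libraries spread below and above the younger ones. The soleus change was -0.26 ± 0.07 (SE; adjusted p = 0.00157), and it did not pass when libraries were scaled by their totals (-0.11, adjusted p = 0.0888). In the diaphragm Rpl3l was slightly higher at 27 months, with 7.27, 7.40 and 7.59 at 6 months, 7.17, 7.601 and 7.79 at 27 months and a change of 0.15 ± 0.05 (SE; adjusted p = 0.0107). That call was lost with the ribosomal RNA share as a covariate (0.10, adjusted p = 0.137).

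Genes of the muscle fibre also moved at 27 months. Ckm, the creatine kinase of muscle, was at -0.83, -0.29 and -0.85 in gastrocnemius, soleus and TA. Acta1, skeletal actin, was at -0.46, -0.34 and -0.42, and Des, the intermediate filament desmin, at -0.33, -0.20 and -0.34. Each of these values passed with TMM. Mb, myoglobin, was at -0.18 and -0.21 in gastrocnemius and soleus, both past the threshold, and at 0.13 in the TA, which did not pass. With library totals Ckm was at -0.55, -0.15 and -0.54, Acta1 at -0.18, -0.19 and -0.11 and Des at -0.05, -0.06 and -0.02. Of these, Ckm passed in gastrocnemius and TA and Acta1 in gastrocnemius and soleus. Mb was then at 0.10, -0.06 and 0.45, of which the TA value passed.

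Of the 6 fast-fibre genes, 5 fell in the gastrocnemius and 6 in the TA, while 6 rose in the soleus, among them the fast myosin Myh4 (8.48-fold). With totals Mylpf, a light chain of fast myosin, turned to 0.12 in the gastrocnemius, not passing, and to 0.15 in the TA, where it passed. Of the 5 slow-fibre genes, 5 fell in the soleus and 2 in the TA with TMM, and 3 and 1 with totals, where 1 rose in the TA and 2 in the gastrocnemius. In the diaphragm 2 fast-fibre genes rose and 1 fell, 3 slow-fibre genes rose, and Acta1 rose by 0.14. The part of the fibre genes in the fall of Rpl3l was not tested.

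At 18 months Rpl3l was higher than at 6 months in the soleus, without overlap between the groups (7.57, 7.68 and 7.94 against 7.20, 7.35 and 7.42). The log2 change was 0.35 (adjusted p = 0.000138). At 24 months it was -0.77 in the gastrocnemius and -0.40 in the TA, both past the threshold, and -0.16 in the soleus, which did not pass (adjusted p = 0.0816).

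**Figure D3:**
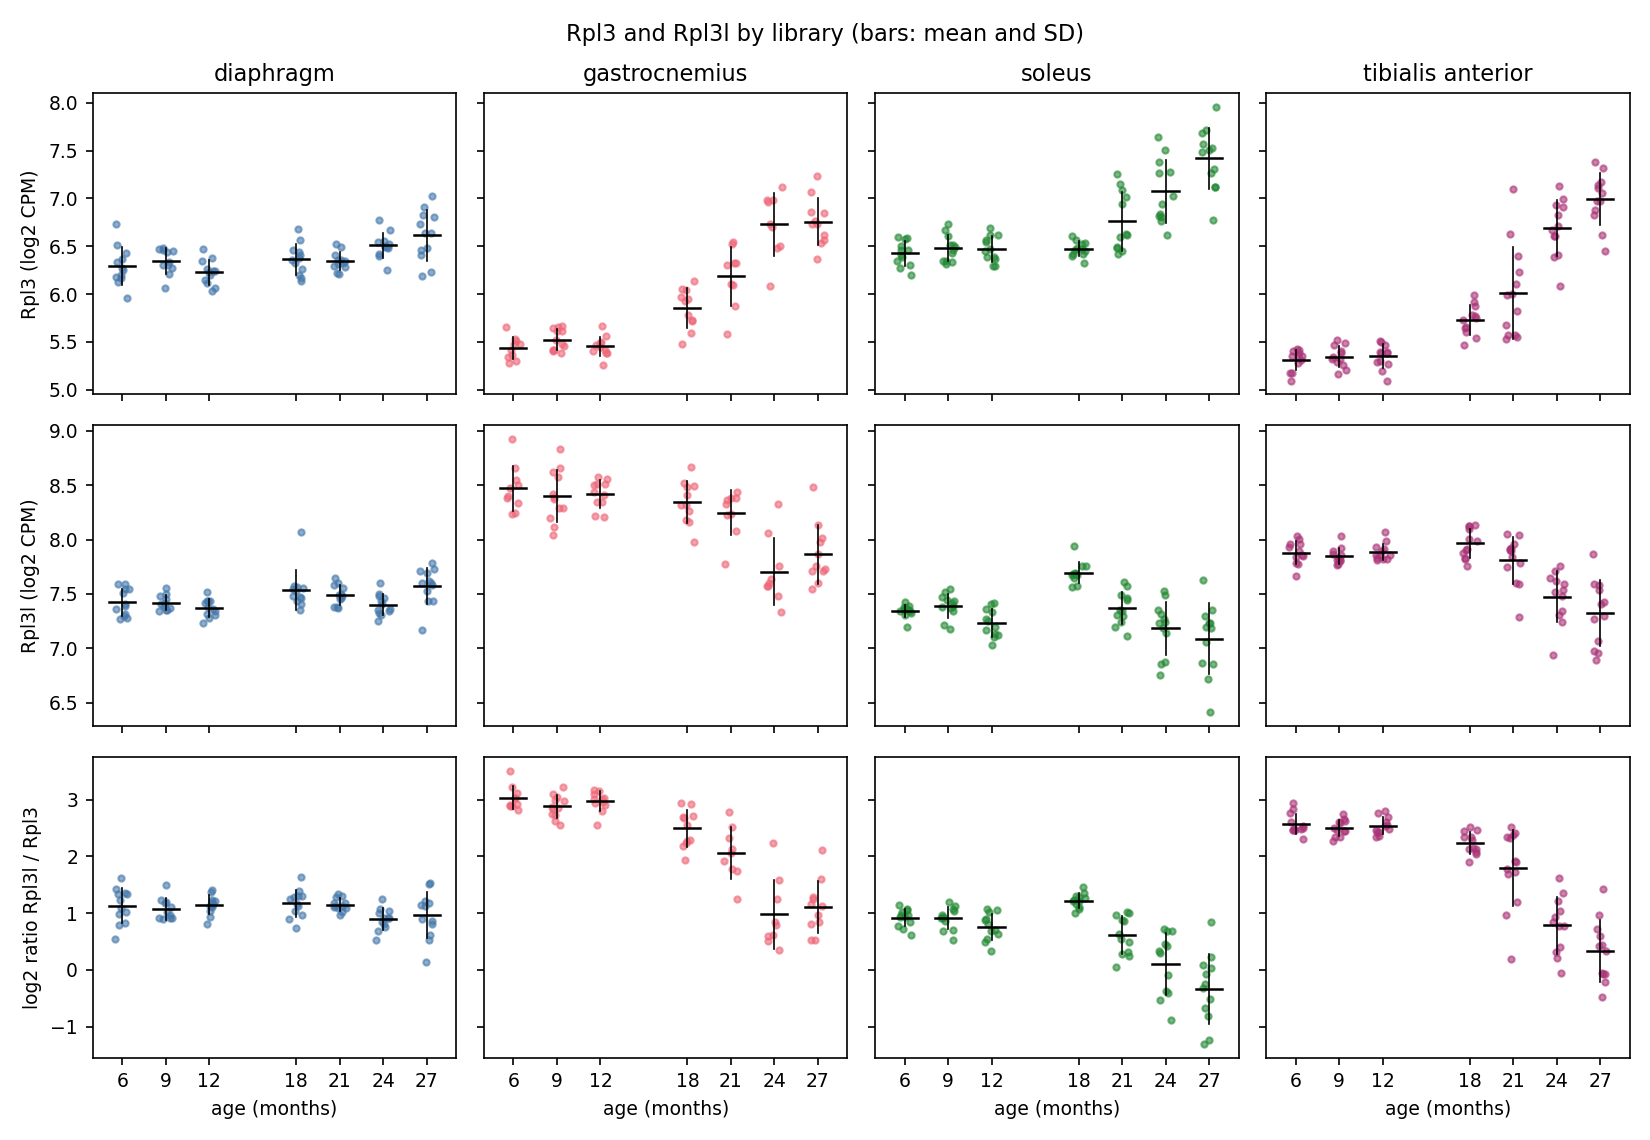
Rpl3 (top), Rpl3l (middle) and the log2 ratio of Rpl3l to Rpl3 counts (bottom) in each library (points) at each age (x axis, months), 1 column per muscle, with the mean and standard deviation of each group. Genes are in log2 CPM scaled within the muscle. Rpl3 of 27 months lies above every 6-month library in gastrocnemius, soleus and TA, and the ratio of 27 months lies below every 6-month library in gastrocnemius and TA.

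The ratio of the paralogs within a library needs no library scaling. It was taken as the log2 ratio of Rpl3l to Rpl3 counts, 0.5 added to each, and only its change is read, since the counts were not divided by transcript length. In the gastrocnemius its lowest, median and highest value were 2.83, 2.98 and 3.51 at 6 months and 0.519, 1.13 and 2.11 at 27 months. In the TA they were 2.31, 2.50 and 2.94 and then -0.48, 0.38 and 1.42. In neither muscle did the groups overlap. The mean log2 ratio fell by 1.93 in the gastrocnemius and by 2.24 in the TA, so that the ratio was 0.263 and 0.212 of its value at 6 months (adjusted p = 2e-05 in each, two-sided permutation test, where 1e-05 is the smallest unadjusted p that 100000 resamples can give).

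In the soleus the log2 ratio was 0.615, 0.947 and 1.15 at 6 months and -1.31, -0.28 and 0.849 at 27 months (lowest, median, highest), with overlap. Its mean fell by 1.25, to 0.419 of the earlier ratio (permutation test, adjusted p = 2.67e-05). The diaphragm had 0.548, 1.16 and 1.63 at 6 months and 0.148, 1.01 and 1.53 at 27 months. The difference of -0.17 was within the spread of the libraries (permutation test, adjusted p = 0.269).

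The change of the pair differed between muscles in the test of the difference itself, fitted over the libraries of all muscles. This fit took all libraries as independent, although muscles of the same animal may be among them. The change of Rpl3 in the TA was larger than in the diaphragm by 1.31, than in the soleus by 0.70 and than in the gastrocnemius by 0.36 on the log2 scale. The gastrocnemius exceeded the diaphragm by 0.95 and the soleus by 0.33, and the soleus exceeded the diaphragm by 0.62. All 6 differences passed in limma-voom, with adjusted p from 2.3e-19 to 0.0318. For Rpl3l the difference from the diaphragm was -0.81 (gastrocnemius), -0.47 (soleus) and -0.75 (TA), and all 3 passed. The TA and the gastrocnemius differed by 0.05 ± 0.11 (SE), which did not pass (adjusted p = 0.781).

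Among the libraries of 27 months, those with more Rpl3 tended to have less Rpl3l. Pearson's r was -0.86 in the soleus (n = 12, permutation test, adjusted p = 0.00196), and Spearman's rho was -0.92 (permutation, adjusted p = 0.00032). In the TA r was -0.81 (n = 12, permutation, adjusted p = 0.0029) and rho was -0.84 (permutation, adjusted p = 0.00312). In the diaphragm r was -0.74 (n = 12, permutation, adjusted p = 0.00518) and rho was -0.64 (permutation, adjusted p = 0.0351). In the gastrocnemius r was -0.61 (n = 11, permutation, adjusted p = 0.0455) and rho, -0.56, did not pass (permutation, adjusted p = 0.0764).

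Without the 2 libraries farthest from the median of Rpl3, r stayed past the threshold in the soleus alone, at -0.78 (permutation, adjusted p = 0.0176). It was -0.70, -0.46 and -0.64 in diaphragm, gastrocnemius and TA (permutation, adjusted p = 0.0546, 0.211 and 0.0821) with 10, 9 and 10 libraries. In the diaphragm r was thus close to its value over all libraries, with an unadjusted p of 0.0205 (permutation). A total of 8 relations were computed, and the adjustment is over these 8. Both levels of a library share its scaling, and all animals of an age share a collection day.

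**Figure D4:**
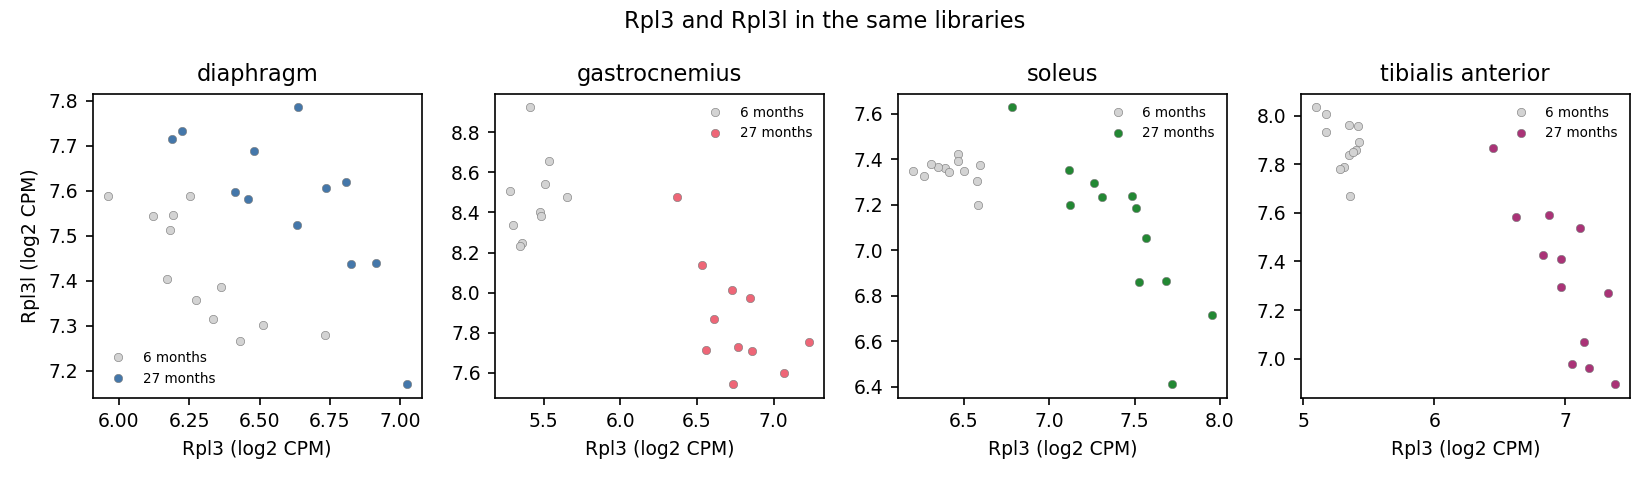
Rpl3l (y axis) against Rpl3 (x axis), both in log2 CPM scaled within the muscle, 1 point per library of 6 months and of 27 months, with 1 panel per muscle and axes that differ between panels. The older libraries run from upper left to lower right, with r among them of -0.74, -0.61, -0.86 and -0.81 in diaphragm, gastrocnemius, soleus and TA.

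The remaining relations among the 8 set the ratio against genes that muscle raises when it loses its nerve. This list held 11 genes, among them the acetylcholine receptor subunits Chrna1, Chrnd and Chrng, Musk, Ncam1, Runx1, Myog and the developmental myosins Myh3 and Myh8. Of these, 10, 10, 11 and 11 rose by 27 months in diaphragm, gastrocnemius, soleus and TA, none fell, and their median log2 change was 1.29, 3.70, 2.45 and 4.49. At 27 months the mean level of the list and the log2 ratio of Rpl3l to Rpl3 had an r of -0.95 in the TA (n = 12, permutation, adjusted p = 8e-05), with a rho of -0.92 (permutation, adjusted p = 0.00032). Without the 2 libraries farthest from the median of the list, r was -0.93 (permutation, adjusted p = 0.00192).

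In the other muscles r passed over all libraries and did not pass after adjustment without the 2 libraries farthest out. In the gastrocnemius r was -0.81 (permutation, adjusted p = 0.00456), rho was -0.69 (permutation, adjusted p = 0.0305) and r without them was -0.62 (permutation, adjusted p = 0.0988). In the soleus r was -0.78 (permutation, adjusted p = 0.0029), rho was -0.70 (permutation, adjusted p = 0.0268) and r without them was -0.47 (permutation, adjusted p = 0.196). In the diaphragm r was -0.76 (permutation, adjusted p = 0.00456), rho was -0.67 (permutation, adjusted p = 0.0305) and r without them was -0.67 (permutation, adjusted p = 0.0685, unadjusted p = 0.0343). The value of the soleus changed most, and 9 or 10 libraries remained in each muscle.

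Of the other members with a paralog among the members, Rps27l, a paralog of Rps27 that is induced by p53, rose in the limb muscles. In the gastrocnemius its log2 CPM was 4.77, 4.90 and 5.05 at 6 months and 5.14, 5.49 and 5.60 at 27 months (lowest, median, highest), without overlap. The log2 change was 0.54 ± 0.06 (SE; adjusted p = 1.63e-11). In the TA it was 4.60, 4.75 and 4.93 and then 4.97, 5.15 and 5.47, also without overlap, with a log2 change of 0.43 ± 0.05 (SE; adjusted p = 4.55e-11). In the soleus it was 3.37, 3.85 and 4.23 and then 3.89, 4.53 and 4.80, with overlap and a change of 0.66 ± 0.08 (SE; adjusted p = 1.15e-10). The diaphragm value of 0.04 did not pass (adjusted p = 0.650), and the change in each limb muscle exceeded it in the test of the difference, by 0.45, 0.57 and 0.35 in gastrocnemius, soleus and TA. Rps27 itself had log2 changes of 0.17, 0.12, 0.17 and 0.20 in diaphragm, gastrocnemius, soleus and TA, of which the first and last passed.

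Rpl22l1, the paralog of Rpl22, went in different directions. Its log2 change was -0.25 in the diaphragm (adjusted p = 0.00571) and -0.31 in the TA (adjusted p = 3.5e-05), where it turned to 0.022 and did not pass with library totals. Gastrocnemius and soleus had 0.27 (adjusted p = 0.00726) and 0.20 (adjusted p = 0.018). In the TA its log2 CPM was 3.63, 3.81 and 4.12 at 6 months and 3.09, 3.48 and 3.96 at 27 months (lowest, median, highest), with overlap. The changes of TA and gastrocnemius differed by -0.57, and those of TA and soleus by -0.50, both past the threshold. Rpl22 had changes of 0.15, 0.37, 0.16 and 0.13, of which the gastrocnemius value passed (adjusted p = 0.0392).

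Rpl39 rose in the 3 limb muscles, by 0.62 (gastrocnemius, adjusted p = 9.59e-11), 0.38 (soleus) and 0.37 (TA), and its diaphragm value was 0.04, which did not pass. In the gastrocnemius its log2 CPM was 5.19, 5.51 and 5.83 at 6 months and 5.67, 6.15 and 6.38 at 27 months, with overlap of the ends. Its paralog Rpl39l, known from testis, stayed near the floor, with group medians between -6.24 and -3.59 log2 CPM in the 6- and 27-month libraries.

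The stalk of the large subunit, which recruits elongation factors, is formed by Rplp0, Rplp1 and Rplp2. Rplp0 rose by 0.27, 0.26 and 0.32 in diaphragm, soleus and TA, and its gastrocnemius value of 0.14 did not pass. In the diaphragm its log2 CPM was 6.98, 7.17 and 7.31 at 6 months and 7.32, 7.45 and 7.63 at 27 months, without overlap. Rplp2 rose by 0.37, 0.46 and 0.32 in the same 3 muscles, and its gastrocnemius value was 0.22, not past the threshold. Rplp1 differed from both. It was higher in the diaphragm (0.10, adjusted p = 0.0415), while in the gastrocnemius (-0.28, adjusted p = 0.0301) and the TA (-0.17, adjusted p = 0.00219) it was lower with TMM and not with library totals, where the values were 0.0026 and 0.15. In the TA the log2 CPM of Rplp1 was 6.76, 6.86 and 7.06 at 6 months and 6.55, 6.67 and 6.91 at 27 months, with overlap.

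Rpsa, a small-subunit protein also known as a laminin receptor, rose by 0.14, 0.18 and 0.22 in diaphragm, soleus and TA and was at -0.03 in the gastrocnemius, not past the threshold, where library totals gave 0.25. Rps6, the small-subunit protein phosphorylated by the S6 kinases, was higher in the gastrocnemius (0.14) and the TA (0.11). In the soleus it was lower with TMM (-0.10, adjusted p = 0.017) and at 0.048 with library totals, and in the diaphragm its value of -0.03 did not pass. Rps6 thus had small values of either sign.

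Further members ranked among the 3 largest rises or falls of a muscle. In the TA, Rps21 rose by 0.61 ± 0.11 (SE) and Rpl41, the shortest ribosomal protein, by 0.57 ± 0.06 (SE). The log2 CPM of Rpl41 there was 6.49, 6.58 and 6.71 at 6 months and 6.95, 7.13 and 7.37 at 27 months, without overlap. Rps12 rose by 0.59 ± 0.10 (SE) in the gastrocnemius and Rpl27 by 0.37 ± 0.05 (SE) in the diaphragm. Rps3a and Rpl26 were lower in the diaphragm, at -0.19 and -0.10 (adjusted p = 0.00758 and 0.0472).

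Rpl37a was the largest rise in the diaphragm, at 0.85 ± 0.29 (SE; adjusted p = 0.0133), but its libraries spread widely. Its log2 CPM there was 1.00, 2.28 and 3.31 at 6 months and 2.51, 3.31 and 4.34 at 27 months. Its standard deviation within ages was 0.82, 0.96, 1.64 and 0.66 log2 units in diaphragm, gastrocnemius, soleus and TA, where the median member had 0.107, 0.151, 0.110 and 0.127. Many ribosomal protein genes have near-identical processed copies in the genome, and how the counting shared reads among copies is not given in the sources used here, so that levels of single members are uncertain to that extent.

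Over all members, the share called by the test of the difference between muscles depended on the scaling. It was below the share of all genes in each pair of muscles with TMM. Diaphragm and gastrocnemius differed in the change of 35 of 80 members (51.7% of all genes), diaphragm and soleus in 13 (36%), and diaphragm and TA in 20 (48.2%). Gastrocnemius and soleus differed in 16 (40.3%), gastrocnemius and TA in 17 (27%), and soleus and TA in 23 (38.9%). With library totals 49 members were called for diaphragm and gastrocnemius (54.8% of all genes), 27 for diaphragm and soleus (40.7%) and 69 for diaphragm and TA (60.4%). The totals gave 31 for gastrocnemius and soleus (40.9%), 17 for gastrocnemius and TA (27.4%) and 52 for soleus and TA (44.4%), so that the share of members exceeded that of all genes in 3 of the 6 pairs. In the 3 pairs with the gastrocnemius the largest absolute difference was that of Rpl37a, -0.98 against the diaphragm and 0.59 of either other muscle against it, and none passed. In the other 3 pairs it was that of Rpl3.

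At 6 months, before the changes with age, the muscles differed in the level of most members. In the gastrocnemius 68 members were higher than in the diaphragm and 3 lower, beside 72.4% of all genes in either direction. The median difference was 0.77 on the log2 scale, and that of all genes was -0.05. In the soleus 60 were higher than in the diaphragm and 1 lower, beside 29.8% and 31.7% of all genes (median 0.29). In the TA 58 were higher than in the diaphragm and 8 lower, beside 37.1% and 35.9% (median 0.26), but with library totals 15 were higher and 46 lower, so that the direction turned with the scaling. The soleus had 13 members higher and 54 lower than the gastrocnemius, beside 76.2% of all genes in either direction, and with totals 36 higher and 37 lower. With TMM the median difference of this pair was -0.47, and that of all genes was 0.06.

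The TA had 5 members higher and 67 lower than the gastrocnemius, beside 53.5% of all genes in either direction, and 4 and 66 with totals. With TMM the median difference of this pair was -0.53, and that of all genes was -0.03. Against the soleus the TA had 29 members higher and 34 lower, beside 37.1% and 38.9%, and 12 and 56 with totals. For gastrocnemius against diaphragm the totals gave 49 and 15, and for soleus against diaphragm 54 and 1. Totals moved the median of all genes by -0.44, -0.03, -0.44, 0.41, -0.01 and -0.41 in the order diaphragm to gastrocnemius, diaphragm to soleus, diaphragm to TA, gastrocnemius to soleus, gastrocnemius to TA and soleus to TA. The gastrocnemius was also the muscle with its own number series and the most ribosomal RNA, so that muscle and series cannot be told apart in each pair that holds it.

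**Figure D5:**
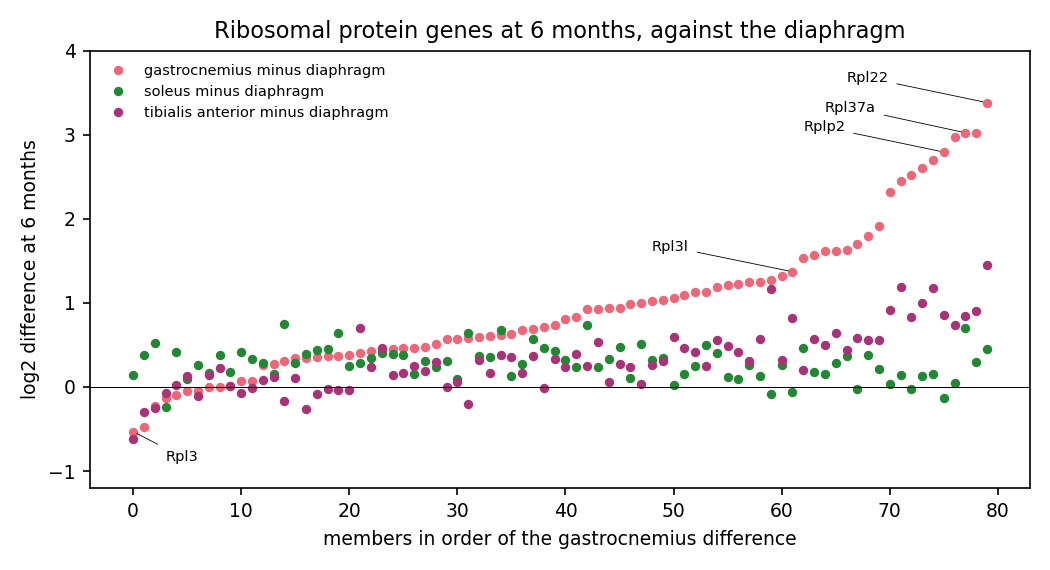
Log2 difference from the diaphragm at 6 months (y axis) of 80 ribosomal protein genes in gastrocnemius, soleus and TA, in order of the gastrocnemius difference (x axis), with library scaling over all libraries. The gastrocnemius points run from -0.53 for Rpl3 to 3.38 for Rpl22, while the soleus points lie closer to 0. With library totals, most TA points would lie below 0 (15 members higher and 46 lower).

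Single members differed by more. Rpl22, an RNA-binding protein of the large subunit, was 3.38 ± 0.16 (SE) log2 units higher in gastrocnemius than in diaphragm, with a lowest, median and highest log2 CPM of 3.95, 4.91 and 5.37 against 1.05, 1.57 and 1.83, on a scale common to all muscles. The soleus had 1.49, 2.01 and 2.25 and the TA 2.58, 2.99 and 3.59, so that soleus and diaphragm overlapped and no other muscle did with them. Rps28 was lower in the TA than in the gastrocnemius by -2.23 ± 0.10 (SE), and Rps27l was higher in the TA than in the soleus by 1.25 ± 0.07 (SE).

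The pair was again split between muscles at 6 months, on the same common scale. Rpl3 had medians of 6.28 in the soleus, 6.09 in the diaphragm, 5.62 in the gastrocnemius and 5.55 in the TA. Neighbours in that order did not pass for soleus and diaphragm (0.15, adjusted p = 0.141) or for gastrocnemius and TA (-0.09, adjusted p = 0.482), while both of the first lay above both of the last with an adjusted p past the threshold. Rpl3l had medians of 8.60 in the gastrocnemius, 8.08 in the TA, 7.22 in the diaphragm and 7.21 in the soleus. The TA was below the gastrocnemius by -0.55 and above the diaphragm by 0.82, and both passed, whereas soleus and diaphragm differed by -0.06, which did not pass (adjusted p = 0.491).

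Within a muscle and age, members tended to move together from library to library. Over the deviations from the age means, the median r of all member pairs was 0.29, 0.36, 0.33 and 0.50 in diaphragm (83 libraries), gastrocnemius (73), soleus (84) and TA (85). These values describe libraries that share scaling and depth. A negative r was found for 18.1%, 25%, 10.6% and 5.59% of pairs, and Rpl3 with Rpl3l was among them in each muscle, at -0.43, -0.40, -0.58 and -0.67. Both genes also went with the share of the 10 genes with the most counts in a library. In the same order of muscles, r with this share was 0.73, 0.78, 0.77 and 0.83 for Rpl3l. For Rpl3 it was -0.27, -0.12, -0.52 and -0.59. The part of this share in the relation of the pair was not tested.

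In the gastrocnemius this common movement went with residual ribosomal RNA. There 45 of 81 members had an r over 0.5 with the log2 share of ribosomal RNA counts and 5 had an r under -0.5. The other muscles had 8 (diaphragm), 0 (soleus) and 0 (TA) members over 0.5. In the gastrocnemius Rplp2 stood at 0.95, Rps21 at 0.94, Rpl11 at -0.76 and Rps3a at -0.67, and Rpl3 at 0.03.

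The genes around the ribosomal proteins moved in both directions with TMM, and more of them were higher with library totals. Their counts at 27 months stand beside the shares of all genes given above, 20.3%, 33.2%, 27.4% and 37.7% higher and 24.7%, 28.9%, 26.4% and 36.5% lower in diaphragm, gastrocnemius, soleus and TA. Of 20 further genes with TOP messengers, such as elongation factors and the poly(A)-binding protein, 9 were higher and 5 lower in the diaphragm, 7 and 4 in gastrocnemius as in soleus, and 11 and 5 in TA. The higher genes were 45%, 35%, 35% and 55% of the list, and with totals 12, 14, 13 and 17 were higher and 2, 0, 1 and 2 lower. Among them Eef1a1, the elongation factor of most cells, rose by 0.21, 1.52, 0.54 and 1.97 in diaphragm, gastrocnemius, soleus and TA. Eef1a2, the form of adult muscle and nerve, had values of 0.18, -0.36, -0.02 and -0.08, of which the first 2 passed. With library totals, 2, 1, 2 and 2 of these 2 genes were higher and 0 lower in each muscle. The fall of Eef1a2 in the gastrocnemius was thus lost, and Eef1a2 was called higher in soleus and TA. Eif3e, a subunit of an initiation factor, was lower in diaphragm, soleus and TA (-0.54, -0.49 and -0.51), and its gastrocnemius value of 0.07 did not pass.

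Of 29 ribosome assembly factors, the diaphragm had 12 higher and 3 lower, the gastrocnemius 10 and 6, the soleus 4 and 7, and the TA 12 and 5. The higher ones were 41.4%, 34.5%, 13.8% and 41.4% of the list, and with totals 16, 24, 12 and 27 were higher and 3, 0, 0 and 0 lower. Nop58, a core protein of the particles that methylate ribosomal RNA, went from -0.45 in the diaphragm to 0.81 in the gastrocnemius. Of 15 genes of RNA polymerases I and III, the diaphragm had 8 higher and 0 lower, the gastrocnemius 4 and 7, the soleus 2 and 2, and the TA 5 and 4. The higher ones were 53.3%, 26.7%, 13.3% and 33.3% of the list, and with totals 9, 11, 10 and 12 were higher and 0, 1, 0 and 1 lower. Polr1a, the largest subunit of polymerase I, rose by 0.84 in the TA, and Maf1, a repressor of polymerase III, was lower there (-0.51) and in the gastrocnemius (-0.65).

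A list of 14 genes of growth signalling to the ribosome held both genes that carry the signal and genes that restrain it. Of these 14, the diaphragm had 5 higher and 3 lower, the gastrocnemius 1 and 9, the soleus 1 and 6, and the TA 3 and 8. The lower ones were 21.4%, 64.3%, 42.9% and 57.1% of the list, and with totals 7, 4, 6 and 9 were higher and 2, 3, 5 and 4 lower. The 1 gene higher in gastrocnemius and soleus with TMM was Myc, a transcription factor that drives ribosome production, which rose by 0.48, 2.14, 1.09 and 2.12 in diaphragm, gastrocnemius, soleus and TA. Eif4e, which binds the cap of the messenger, was lower in all 4 muscles (-0.36, -0.56, -0.42 and -0.59). Rps6kb1, the S6 kinase that phosphorylates Rps6, was lower in diaphragm, soleus and TA (-0.76, -0.38 and -0.60), and its gastrocnemius value of 0.41 did not pass. Tsc1 and Eif4ebp2, which restrain the signal, were lower in gastrocnemius (-0.38 and -0.62), soleus (-0.28 and -0.27) and TA (-0.49 and -0.59). Neither passed in the diaphragm. The counts of the list therefore give no direction of the signal. Rack1 and Larp1 were not analysed here.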

How the data were processed

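The authors deposited raw counts per gene for each library, with no normalization. Per the methods, strand-specific total RNA libraries depleted of ribosomal RNA were sequenced in pairs and counted with the ArrayStudio pipeline on an older rat reference with an in-house RefSeq gene model. The ArrayStudio version and the treatment of reads with several matches are not given in the sources used here. All lines of the tables carried a gene name.

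Counts of lines with 1 symbol were summed. In each muscle, genes were filtered with filterByExpr in edgeR 4.0.16 (minimum count 10, minimum total 15), which kept 12035, 11865, 12175 and 11754 genes in diaphragm, gastrocnemius, soleus and TA, and scaled by TMM. Contrasts of the later ages with 6 months came from limma-voom (limma 3.58.1, R 4.3.3) with Benjamini-Hochberg adjustment over all genes tested. Differences between muscles, in the change at 27 months and in the level at 6 months, came from 1 fit over all libraries, 28 group means and 12784 genes. Levels are log2 CPM with a prior count of 0.5. The Rpl3l to Rpl3 ratio and the relations among libraries were tested by two-sided permutation with 100000 resamples. The steps were tested on simulated data with known changes. The members and the gene lists were chosen with earlier results of these data known.

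Named are the pair, other paralogs with their partner, the stalk genes, Rpsa, Rps6, the 3 largest rises and falls per muscle that passed with a mean log2 CPM over 0, and the largest difference per muscle pair, of which 1 is not reported here; list examples are among those with the largest absolute change, and the members higher in all muscles were chosen as examples after their values were seen. Alternatives were RLE size factors, library totals, TMM without the members, no filter, edgeR's quasi-likelihood test, DESeq2 1.42.0, sample quality weights, the line with the most counts, a replicate block, Bonferroni adjustment and a change over 1.5-fold, as well as 2 added after seeing the data, the ribosomal RNA share as a covariate and leaving out the 4 libraries that stood apart. A library counted as apart when its median correlation with its group lay over 0.02 below the group's. Promoters came from RefSeq tables of GRCr8, a build other than the authors', and are used for sequence only.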

Additional observations from a re-analysis of the deposited data

Results flagged for a closer look

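Outliers were looked for in 66 sets of values, each of a named member in a group of 9 or 10 libraries, by the gap of the outermost library to its neighbour over the range of the group. Chance gives about 1 such value in 20 groups. The groups of that size were those of the gastrocnemius at 6, 21 and 24 months, and no group of another muscle was searched. The 5 found were at 24 months, in log2 CPM. Rpl37a was lowest in replicate 2, at 1.24, with the next library at 3.85. Rpl39l was lowest in replicate 8, at -4.77, with the next at -3.63. Rplp2 was highest in replicate 0, at 5.70, with the next at 5.25. In the same library Rps3a was lowest at 8.30 (next 8.67), and Rps6 was lowest at 7.74 (next 7.99).

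The change of Rpl3 from 6 to 27 months differed between every pair of muscles in limma-voom, with Benjamini-Hochberg adjustment. It was larger by 0.95 in gastrocnemius than diaphragm (adjusted p = 7.62e-11), by 0.62 in soleus than diaphragm (1.85e-05), by 1.31 in TA than diaphragm (2.3e-19), by 0.36 in TA than gastrocnemius (0.0282) and by 0.70 in TA than soleus (1.05e-06). For soleus minus gastrocnemius it was -0.33 (0.0318).

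The change of Rpl3l differed in 5 of the 6 pairs. The difference was -0.81 for gastrocnemius minus diaphragm (adjusted p = 7.23e-11), -0.47 for soleus minus diaphragm (0.00012), -0.75 for TA minus diaphragm (2.02e-10), 0.34 for soleus minus gastrocnemius (0.00863) and -0.29 for TA minus soleus (0.023). The last was -0.12 and did not pass with library totals (adjusted p = 0.21).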

How the results depend on the processing

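Among the values that answer a comparison, 273 alternatives stayed the same, 11 lost the call and 40 moved. A tested value stayed the same when it kept direction and side of the threshold. A count stayed the same when it lay within 1.5-fold of its main value, and moved otherwise. Counts of members higher at 27 months were 14, 11, 16 and 34 in diaphragm, gastrocnemius, soleus and TA with Bonferroni adjustment, 1, 3, 2 and 2 with a change over 1.5-fold, 76 in the gastrocnemius with library totals, and 32 in the diaphragm with the ribosomal RNA covariate, where the median change was 0.092. With library totals the median was 0.45, 0.31 and 0.54 in gastrocnemius, soleus and TA. Rpl3 in the diaphragm (0.32) had a Bonferroni p of 0.13. Rpl3l lost its call in the diaphragm (0.10 with the covariate, p = 0.137; 0.15 with Bonferroni adjustment, p = 1) and in the soleus (-0.11 with totals, p = 0.0888; -0.26 with Bonferroni adjustment, p = 1).

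Signs turned with library totals for Rps6 in the diaphragm (0.012) and soleus (0.048), Rplp1 in the gastrocnemius (0.0026) and TA (0.15), Rpsa in the gastrocnemius (0.25) and Rpl22l1 in the TA (0.022). They turned with the covariate for Rps6 in the diaphragm (0.028), and with sample weights for Rpl39 (-0.038) and Rps27l (-0.034) in the diaphragm and for the difference of Rpl3l between TA and gastrocnemius (-0.0063). The cause was not tested.

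Members whose change differed between muscles numbered 7, 2, 3, 1, 2 and 3 with Bonferroni adjustment and 3, 1, 2, 0, 0 and 1 over 1.5-fold, in the order gastrocnemius, soleus and TA against diaphragm, soleus and TA against gastrocnemius, and TA against soleus. With totals they numbered 27 for soleus and 69 for TA against diaphragm, 31 for soleus against gastrocnemius and 52 for TA against soleus, and with sample weights 9 for TA against gastrocnemius. Members higher at 6 months numbered, over 1.5-fold, 5 and 15 in soleus and TA against diaphragm, 3 and 0 in soleus and TA against gastrocnemius and 12 in TA against soleus. With totals they numbered 15 for TA against diaphragm, 36 for soleus against gastrocnemius and 12 for TA against soleus, and with Bonferroni adjustment 2 for TA against gastrocnemius. Without the 2 outermost libraries, permutation tests did not pass after adjustment for Rpl3 and Rpl3l in diaphragm (-0.70, adjusted p = 0.0546), gastrocnemius (-0.46, 0.211) and TA (-0.64, 0.0821), and for the denervation list and the ratio in diaphragm (-0.67, 0.0685), gastrocnemius (-0.62, 0.0988) and soleus (-0.47, 0.196).

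Replicate numbers did not pair the ages: the median correlation of same-numbered libraries of 6 and 27 months was 0.03, 0.01, 0.06 and 0.07 in diaphragm, gastrocnemius, soleus and TA, and 2, 1, 4 and 1 libraries correlated best with their own number. With the replicate block, 50, 48, 57 and 59 members were higher, beside 2505 of 12035, 3979 of 11865, 3283 of 12175 and 4442 of 11754 genes tested. The adjusted p of the ratio was then 0.175, 0.00263, 0.0011 and 0.0011 in permutation within pairs. Across muscles at 6 months, 7, 9 and 10 of 12 libraries correlated best with their own number (diaphragm and soleus, diaphragm and TA, soleus and TA). At 27 months these were 3, 6 and 5 of 12. Such matches are a hint from the data and not from the labels.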
